A study of Oryzias latipes with 4 samples.

Results

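Short spliced transcript models, with 300 bases or less of exon sequence, made up 3221 of the 93896 models measured by RNA-seq and by ribosome profiling (Ribo-seq) in the brain of medaka (Oryzias latipes). A member had to be multi-exon, that is shorter than the stretch of chromosome it covers, and that stretch had to be below 50000 bases. No other model could overlap it, and its mean FPKM (a level in fragments per kilobase, scaled by library depth) over the 4 libraries had to be at least 1. Members were thus selected on measured values, their mean over both assays. Of 14394 spliced models of this length, 5038 met the span and overlap limits and 3221 also the limit on FPKM. The tissue was taken from female fish of a local dealer and comprised the ventral telencephalon together with the hypothalamus and the pituitary. All fish had been kept in the condition labelled SD and were sampled 16 h after transfer to the one labelled LD, so that both groups, 2 LD_RNAseq and 2 LD_Riboseq libraries, share tissue and treatment and differ in the assay. Libraries were prepared with a ribosome profiling kit made for mammalian samples. Nothing in the labels ties the 2 libraries of an assay to different fish, and a p-value here covers the spread between libraries, which may be technical.

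Ribo-seq reads the pieces of mRNA that a ribosome shields from nuclease, so its level beside that of RNA-seq is a relative measure of how many ribosomes a transcript carries. Short open reading frames occur in messages of small secreted peptides and subunits, in leaders of longer messages and in RNAs without a known protein. A short model can also be a piece of a longer transcript that an assembly or a gene prediction did not join. The comparison of the assays asks which of these models carry ribosomes.

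Of the tissue's marker genes that received a model, those of pituitary (cga, pomc, lhb), hypothalamus (oxt, cck, gnrh3, hcrt), neurons (snap25, slc17a6, elavl3, gad1) and radial glia (glul, slc1a2) were seen in RNA-seq at 2.92 to 353 FPKM, while prl was at 0.240 FPKM. Of muscle, eye and pineal markers, acta1 had 4.84, rho 0.0259 and aanat2 0.346 FPKM. No marker of blood or oligodendrocytes was matched to a model.

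The models ranged from 96 to 300 bases (median 234) and covered 149 to 48884 bases of chromosome (median 1862). A length that is a multiple of 3, as in a coding sequence counted from start to stop, was found in 3063 members (95.1%), against 78.8% of all 93896 models. The share was 99.2% in single-exon models of 300 bases or less without overlap. In longer spliced models that met the other limits it was 87.6% at 301 to 400 bases and 41.0% above 2000, so it went with short length. Members lay on all 24 chromosomes, with 90 to 178 on each. The files give no gene names or exon positions. By position in the RefSeq gene table of assembly ASM223467v1, 1920 members (59.6%) lay wholly inside the span of an annotated gene, 254 overlapped one in part and 1047 (32.5%) touched none. The gene was protein-coding for 2065 members and a long non-coding RNA (lncRNA) for 100. Only 31 members (0.962%) had the same extent as a gene, with each covering at least 50% of the other, against 2490 of the 9437 longer spliced models that met the other limits (26.4%). Most members are thus named below by the gene whose span they touch, which does not show that they belong to its transcript, since the strand of the models is not given.

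The FPKM of such short models stood for few reads. In each library, and so in both assays, most values that recurred at 1 model length lay near a fitted curve. Its shape is that of FPKM computed over an effective length with fragments of 200 ± 80 bases (mean and SD). This mean and SD were assumed for the calculation and are not fragment sizes measured in the libraries. Of these recurring values, 59.5% to 71.8% per library lay within 2% of 1, 2 or 3 steps of the curve. The constant of each library was chosen to bring as many of them as possible near these steps. The share is thus no test, and a step is taken below as 1 read. The effective length was 101.6 bases for a model of 300 bases, 30.3 for 200 and 11.7 for 150. A single read was therefore worth 0.447 and 0.417 FPKM in RNA-seq replicates 1 and 2 at 300 bases, and 1.501 and 1.40 FPKM at 200 bases. In Ribo-seq replicates 1 and 2 it was worth 0.942 and 0.730 FPKM at 300 bases, and 3.16 and 2.45 FPKM at 200 bases. Under this reading the libraries held about 22000000 and 23600000 fragments in RNA-seq and 10400000 and 13500000 in Ribo-seq. Only part of the members' values were whole reads: of values that round to 10 reads or fewer, 44.9% and 46.4% in RNA-seq and 38.4% and 33.0% in Ribo-seq lay within 0.1 of a whole number. In the Ribo-seq libraries 719 and 669 member values lay above 0 but below 0.9 read, against 30 and 45 in RNA-seq, so a low value above 0 there need not stand for a read of its own. What makes them fractional was not tested. Read numbers are therefore given as estimates. The effective length enters both assays alike and leaves the ratio between them untouched, but it raises the FPKM of a short model far above that of a long one with as many reads.

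**Figure D1:**
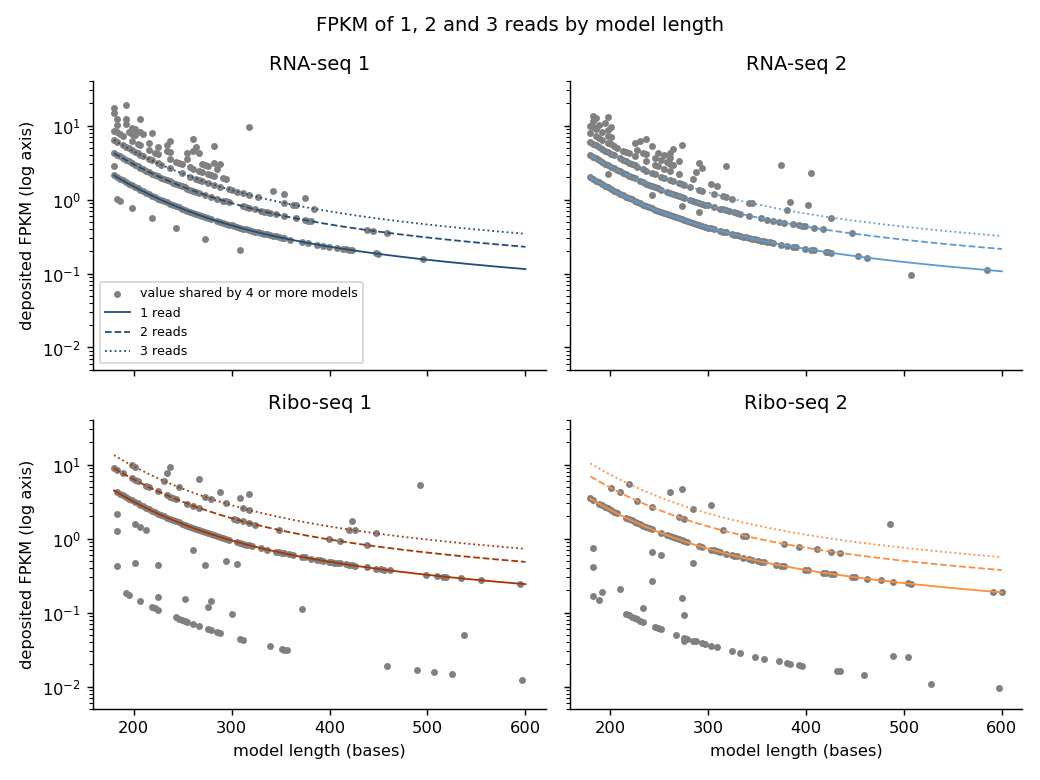
Deposited FPKM (log axis) against model length in bases, 1 panel per library; grey points are values that 4 or more models of 1 length share, and lines are the fitted values of 1, 2 and 3 reads. Most points follow the lines from 180 to 600 bases, some Ribo-seq values form a band far below 1 read, and 1 read is worth more in Ribo-seq than in RNA-seq.

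Levels of members were higher in RNA-seq than in Ribo-seq. A mean of at least 1 FPKM was reached in RNA-seq alone by 2117 members and in Ribo-seq alone by 46. What part the selection on the mean of both assays has in this was not tested. The median FPKM over members was 7.91 in the first RNA-seq library and 6.83 in the second, and 0.0949 and 0 in the corresponding footprint libraries. The RNA-seq libraries listed 32 and 61 members at 0, and the Ribo-seq libraries 1517 and 1637. The median member had an estimated 15.6 reads over both RNA-seq libraries and 0.253 over both Ribo-seq libraries. Ranks of members correlated at 0.83 (Spearman) for RNA and 0.62 for footprints, and at 0.40 to 0.43 for pairs of 1 library of each assay. Members share libraries, so these values are descriptions over 3221 members.

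Footprints were set against RNA in a limma fit over all 50625 models with a mean FPKM of at least 1, on the log2 scale of FPKM scaled between libraries plus 1. A difference is Ribo-seq minus RNA-seq, and 0 stands for the typical ratio of models seen in all 4 libraries. At an adjusted p under 0.05 in limma, footprints were higher than RNA in 227 members (7.05%), lower in 2012 (62.5%) and neither in 982. Among all tested models 23.9% were higher and 33.7% lower. The median difference was -1.80 over members and -0.20 over all tested models, and 90% of the members lay between -3.99 and 1.4995. At an unadjusted p below 0.05, 250 members were higher and 2140 lower. Scaled as in the fit, values of the assays did not overlap in 2728 members, with Ribo-seq above RNA-seq in 329 (10.2%, against 36.6% of tested models) and below it in 2399 (74.5%, against 45.2%). On FPKM as deposited the counts were 176 (5.46%, against 17.7%) and 2598 (80.7%, against 58.0%). Members were selected on the mean of these same values over both assays, and the counts over all members are descriptions. Of the 1058 members with at least 1 FPKM in both assays, itself a choice on both values, 220 (20.8%) were higher and 196 (18.5%) lower, with a median of -0.25. The same choice among all tested models left 31357, of which 37.4% were higher and 7.70% lower, with a median of 0.50. Without RNA-seq replicate 1 or 2 the higher calls were 42 and 37, without Ribo-seq replicate 2 they were 359, and with FPKM as deposited, unscaled between libraries, 63.

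Depth limits what a missing footprint shows. At 200 bases, 3 reads amount to 9.49 and 7.35 FPKM in the Ribo-seq libraries, around or above the median RNA level of the members. At a difference of 0, the RNA level of the median member would give an estimated 4.87 footprint reads over both libraries, and 994 members (30.9%) would have fewer than 3. Of the 2012 lower calls, 606 fell on such members. The RNA level of 896 members was high enough for at least 10 footprint reads at a difference of 0. Among these well-covered members 165 (18.4%) were higher and 489 (54.6%) lower, with a median difference of -2.49, and the median member held 13.3% of the footprints that its RNA level would give. All tested models that passed the same limit held 113% (n = 37988, 29.5% higher and 27.7% lower, median difference 0.10). Longer spliced models that passed it held 99.0% (n = 8171, 29.5% higher and 34.6% lower). Single-exon models of 300 bases or less without overlap held 17.6% (n = 227), close to the spliced ones, with 28 higher and 120 lower. This limit rests on RNA-seq alone and kept 896 of 3221 members and 37988 of 50625 tested models. It kept 8171 of 9437 longer models and 227 of 1163 single-exon models. The sets compared were thus selected on RNA to different degrees.

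Calls differed between members by the RefSeq gene at their position. Of 2065 members in or over protein-coding genes 221 were higher and 1146 lower, with a median of -1.67. Of the 1047 members that touched no gene 4 were higher and 790 lower (median -1.996), and of the 100 over lncRNA genes 1 was higher and 69 lower (median -2.07). Thus 97.4% of the higher calls lay in or over protein-coding genes, which held 64.1% of the members. Among all tested models of any class 23.9% were higher and 33.7% lower. Neither these nor the longer spliced models were split by gene class, so the contrast is not shown to be particular to the members. Median RNA levels of these classes were 8.35, 5.77 and 6.84 FPKM, and 690 of the 2065, 186 of the 1047 and 18 of the 100 had an RNA level that would give at least 10 footprint reads, so RNA was higher at protein-coding genes too; its part in the counts was not tested.

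The same classes were compared among the well-covered members, those with an RNA level that would give at least 10 footprint reads. Of the 690 of them at protein-coding genes, 314 lay below -2, 109 between -2 and 0, and 267 (38.7%) above 0, 156 of them above 1. Of the 186 well-covered members outside genes, 174 (93.5%) lay below -2, 11 between -2 and 0, and 1 above 0. Of the 18 well-covered members at lncRNA genes, 12 lay below -2, 4 between -2 and 0, and 2 above 0. The differences of members at protein-coding genes thus spread widely to both sides of 0. The median well-covered member held 42.6% of the footprints that its RNA level would give at protein-coding genes, 3.92% outside genes and 3.95% at lncRNA genes. At an RNA level of at least 50 FPKM, 71 of 189 members at protein-coding genes were higher and 73 lower, against 0 and 32 of 41 members outside genes.

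**Figure D2:**
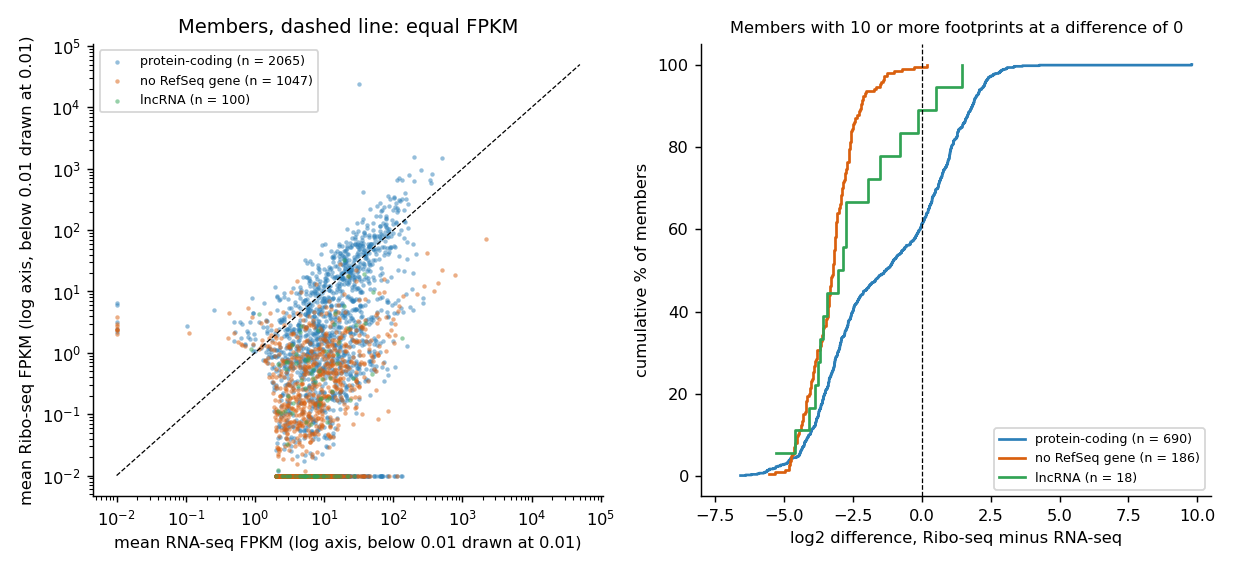
Left, mean Ribo-seq FPKM against mean RNA-seq FPKM of members (log axes, values below 0.01 drawn at 0.01) at protein-coding genes, at lncRNA genes and outside RefSeq genes. Right, cumulative percentage of the log2 difference over the members whose RNA level would give 10 or more footprint reads at a difference of 0; the curve of 690 members at protein-coding genes crosses 0 with 38.7% of them above it, and that of 186 members outside genes with 1.

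The median log2 difference was lower in shorter members. Among well-covered members of 151 to 300 bases the share of footprints relative to RNA was not. The median difference was -1.55 for members of 251 to 300 bases, -1.83 for 201 to 250, -2.22 for 151 to 200 and -3.34 for the 58 members of 150 bases or less, of which 0 were higher and 44 lower. The course continued beyond the members: among spliced models without overlap the median was -1.33 at 301 to 400 bases, -0.58 above 500 and up to 750, and 0.49 above 1000 and up to 2000. A single read is worth more FPKM in shorter models, and the median RNA level went from 6.05 FPKM at 251 to 300 bases to 22.6 FPKM at 150 or less, while the estimated RNA reads went from 22.3 to 6.80. Well-covered members kept the order for the medians, with -2.25, -2.67 and -3.18 from the longest class to that of 151 to 200 bases. The share of footprints that their RNA level would give did not: it was 12.8%, 13.5% and 13.2%, and 19.7% at 301 to 400 bases. Among longer models this share was 29.2% above 400 and up to 500 bases, 52.6% up to 750 and 86.5% up to 1000. On this scale no course with length was thus seen among well-covered members of 151 to 300 bases. Over all members, 27.2%, 36.3%, 49.6% and 63.8% were listed at 0 in both Ribo-seq libraries, from the longest class to the shortest. The median number of footprint reads at a difference of 0 went from 6.94 to 2.12 between these ends. The order of the log2 medians ran beside the higher FPKM of shorter models, and its cause was not tested.

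**Figure D3:**
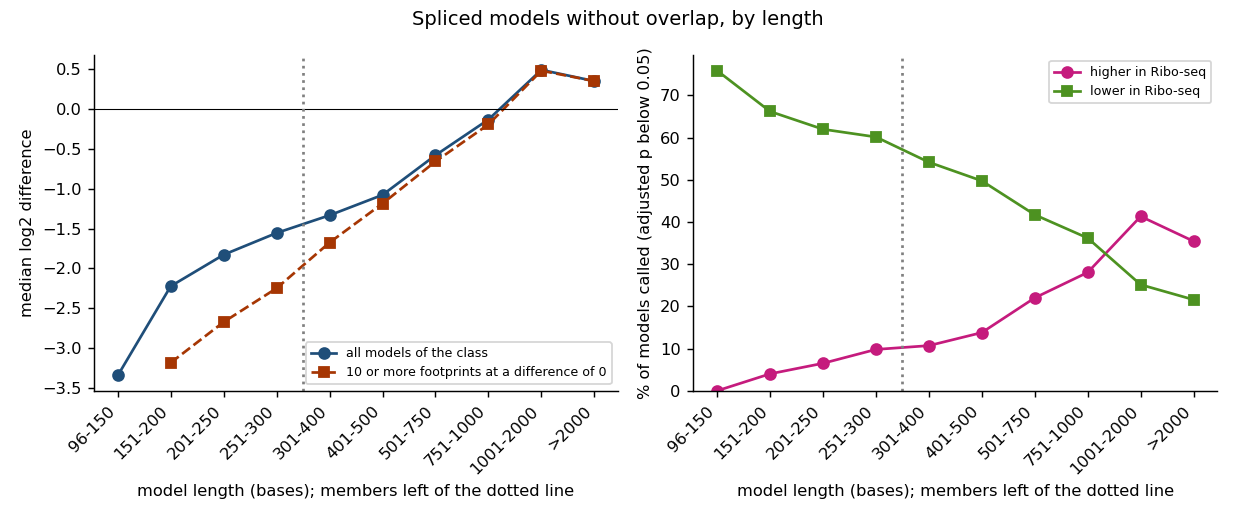
Spliced models without overlap in classes of length; left, the median log2 difference over all models of a class and over those whose RNA level would give 10 or more footprint reads (classes with 20 or more such models), and right, the percentage called higher and lower in Ribo-seq. Higher calls go from 0% at 96 to 150 bases to 41.3% above 1000 and up to 2000 bases, and lower calls from 75.9% to 25.1%.

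The share of footprints relative to RNA also differed by span among well-covered members, those whose RNA level would give at least 10 footprint reads. The 181 that spanned 500 bases or less held a median of 6.25% of the footprints that their RNA level would give, with 24 higher and 126 lower. The share was 9.20% above 500 and up to 1000 bases and 13.1% up to 2000, and then 33.3% up to 5000, 27.8% up to 10000 and 31.1% for wider spans. Over all members the footprint level itself ran the other way at the ends, with a median of 0.313 FPKM for spans of 500 bases or less and 0.0626 FPKM above 10000 bases. At protein-coding genes the value was 8.55% for spans up to 500 bases (n = 130) and 59.9% for wider ones (n = 560). Outside genes it was 3.44% (n = 49) and 4.06% (n = 137), so both classes of span lay close to each other there.

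The 158 members whose length is no multiple of 3 had a higher median difference than the rest, with -1.09 against -1.83 for the 3063 multiples of 3. Among them 24 (15.2%) were higher and 68 (43.0%) lower, against 23.9% and 33.7% of all tested models. Their median length was 262 against 231 bases and their median span 781 against 1935 bases. The part of length and span was not tested. At protein-coding genes the median of those that are no multiple of 3 was 0.10 (n = 102), against -1.70 (n = 1963). Their RNA level was higher too, at an estimated 42.7 against 18.0 reads. Of the 102, 22 (21.6%) were higher and 30 (29.4%) lower, near the shares of all tested models. Outside genes the medians were -2.09 (n = 50) and -1.99 (n = 997). Longer spliced models differed in the same direction, with 0.32 for 3527 that are no multiple of 3 and -0.60 for 5910 that are, but their median lengths were 1334 and 603 bases, and medians differed by length in the same way.

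The 8 members chosen for the largest excess of footprints all touched protein-coding genes, and 1 of them was extreme. That the assays do not overlap was a condition of this choice. MEDAKA065767 (201 bases, chromosome 14, 7809480 to 7818449), partly overlaps the protein-coding gene LOC101173804, and its nearest model lies 137 bases away. Its RNA level was 48.3 and 15.1 FPKM in replicates 1 and 2, and its footprint level 43439.5 and 4897 FPKM. The Ribo-seq libraries lay far from each other. The log2 difference reached 9.80 ± 1.44 (SE, limma, adjusted p = 0.0090), and the model alone held 25.2% of the estimated footprint reads of all members. Without RNA-seq replicate 1 or 2 it was not called (limma, adjusted p = 0.14 and 0.18).

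The next largest excess lay inside eif5, whose product is a translation initiation factor that acts on the start-codon complex. MEDAKA028372 (195 bases, chromosome 22, 21358032 to 21358659) had 26.2 and 47.5 FPKM in RNA-seq and 319 and 507 FPKM in Ribo-seq. The difference was 4.26 ± 0.35 (SE, limma, adjusted p = 0.0039). The call held with any 1 library left out. The model's nearest neighbour lies 21 bases away. To this rounding 0.0039 was also the smallest adjusted p of any tested model, and 641 members had that smallest value.

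MEDAKA093721 (267 bases, chromosome 24, 13018901 to 13024204), inside the protein-coding gene LOC101164199, combined a high RNA level with high footprints. It had 233 and 173 FPKM in RNA-seq and 1019 and 2067 FPKM in Ribo-seq, a difference of 3.65 ± 0.26 (SE, limma, adjusted p = 0.0039). The other members chosen for their excess were MEDAKA039187 at LOC101159268, MEDAKA012575 inside LOC101175630, MEDAKA054083 inside commd7, MEDAKA089252 inside itfg1 and MEDAKA060373 inside LOC101175628. The differences of these 5 ran from 3.05 to 3.36. Of these 5, MEDAKA054083 and MEDAKA089252 rested on the least RNA, with 42.1 and 34.5 estimated reads over both RNA-seq libraries. MEDAKA065767 and MEDAKA028372 also rested on little RNA, with 43.7 and 47.3 estimated reads. Without RNA-seq replicate 1 or 2, MEDAKA093721 (limma, adjusted p = 0.081 and 0.092), MEDAKA054083 (0.096 and 0.13) and MEDAKA089252 (0.13 and 0.17) were not called.

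The 6 members highest in footprints included 4 besides MEDAKA065767 and MEDAKA093721. They were chosen on the Ribo-seq level, 1 side of the comparison, which favours an excess of footprints. MEDAKA091417 (275 bases, chromosome 23, 18744684 to 18746315) lies inside ptn, the gene of the secreted growth factor pleiotrophin. It had 543 and 477 FPKM in RNA-seq and 993 and 2038 FPKM in Ribo-seq, a difference of 2.29 ± 0.25 (SE, limma, adjusted p = 0.0048). MEDAKA022710 (222 bases, chromosome 13, 5168112 to 5168544) lies inside aplp2, a relative of the amyloid precursor protein gene. It had 280 and 226 FPKM in RNA-seq and 566 and 1327 FPKM in Ribo-seq, a difference of 2.58 ± 0.30 (SE). Both footprint levels were the higher in Ribo-seq replicate 2, and neither model's assays overlapped. MEDAKA036798 inside LOC101160039 and MEDAKA018982 inside LOC101171328 reached mean footprint levels of 778 ± 322 and 813 ± 237 FPKM (SD, n = 2). Their differences were 2.92 and 1.92. With FPKM as deposited MEDAKA018982 had a difference of 1.11 and was not called (limma, adjusted p = 0.054). None of these 4 models was called without RNA-seq replicate 1 or without RNA-seq replicate 2 (limma, adjusted p from 0.072 to 0.17).

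**Figure D4:**
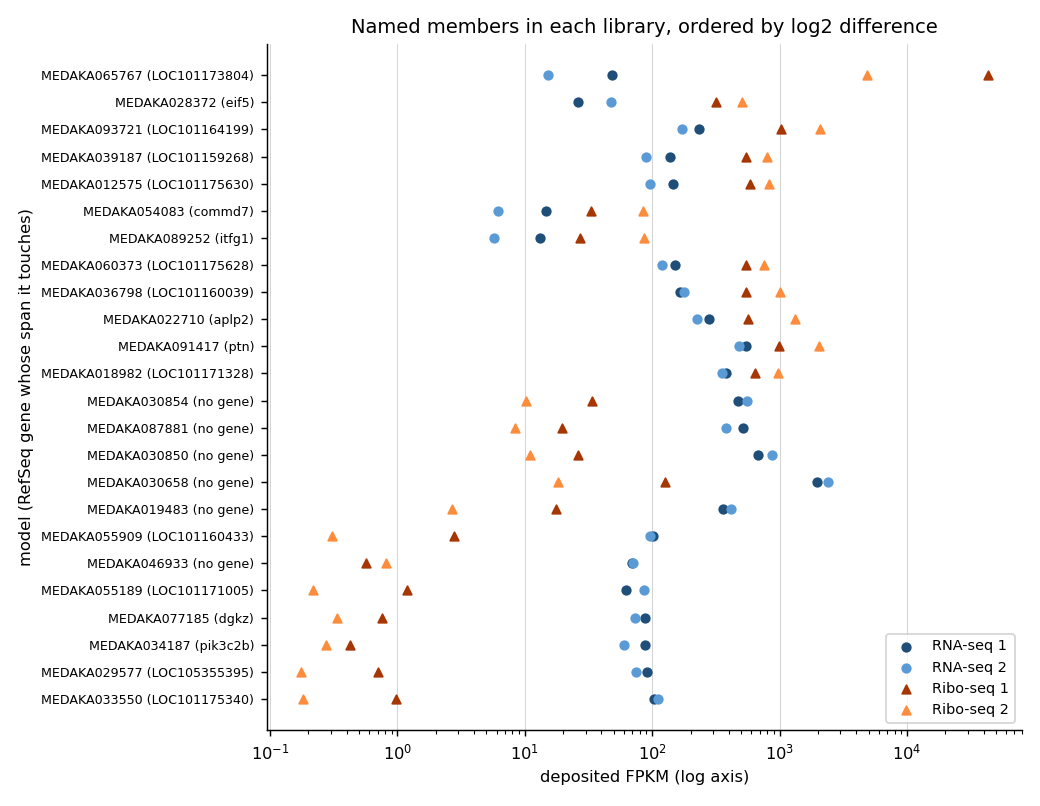
Deposited FPKM (log axis) of the members with the largest log2 differences or the highest levels, 1 row per model with the RefSeq gene whose span it touches, circles for the 2 RNA-seq and triangles for the 2 Ribo-seq libraries. In none of the 24 rows do circles and triangles overlap, which was a condition for the rows chosen by log2 difference. All models with the excess touch a gene, and 6 of the 12 with the deficit touch none.

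The 8 members chosen for the deepest deficit had mean RNA levels of 70 FPKM and more. They were taken from called members with a mean FPKM of at least 10, all values above 0 and assays that do not overlap. Since 1 FPKM is added before the log2, a difference this far below 0 requires a high RNA level. MEDAKA033550 (213 bases, chromosome 14, 26831206 to 26832816), inside the protein-coding gene LOC101175340, had 104 and 110 FPKM in RNA-seq and 0.977 and 0.183 FPKM in Ribo-seq. The RNA-seq libraries lay close together, and both Ribo-seq values are fractions of a read, an estimated 0.470 in all, where its RNA level would give 56.5. Its difference was -5.53 ± 0.41 (SE). MEDAKA034187 (207 bases, chromosome 5, 20364867 to 20365741) lies inside pik3c2b, a lipid kinase gene of the PI3-kinase family. It had 88.0 and 60.2 FPKM in RNA-seq and 0.427 and 0.276 FPKM in Ribo-seq, a difference of -5.22 ± 0.25. MEDAKA077185 (237 bases, chromosome 6, 26856862 to 26858316) lies inside dgkz, which encodes a diacylglycerol kinase. It had 87.3 and 73.8 FPKM in RNA-seq and 0.757 and 0.337 FPKM in Ribo-seq, a difference of -5.13 ± 0.28. The differences of MEDAKA029577, MEDAKA055189, MEDAKA046933, MEDAKA055909 and MEDAKA019483 ran from -5.30 to -4.78, and the last of these 5 and MEDAKA046933 touch no gene. All 8 had an RNA level that met the FPKM limit by itself, so their calls are descriptions. Only MEDAKA055909 and MEDAKA019483 had a Ribo-seq mean above 1 FPKM, at 1.54 and 10.2. Without RNA-seq replicate 1 or 2 the calls of MEDAKA034187 and MEDAKA046933 held, and those of the other 6 did not (limma, adjusted p from 0.053 to 0.24).

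Of the 6 members highest in RNA, 5 lay outside RefSeq genes, and the other was the model inside ptn. The 5 were low in footprints relative to RNA, though above the members' median footprint level of 0.230 FPKM. All 6 were chosen on the RNA level, which favours a deficit of footprints. MEDAKA030658 (213 bases, chromosome 14, 31810 to 33328) had 1963 and 2409 FPKM in RNA-seq and 127 and 18.2 FPKM in Ribo-seq. Ribo-seq replicate 1 lay far above replicate 2, and both lay far below RNA-seq, a difference of -4.66 ± 1.19 (SE, limma, adjusted p = 0.036). MEDAKA030850 (189 bases, chromosome 21, 2329054 to 2338866) had 675 and 865 FPKM in RNA-seq and 26.0 and 10.9996 FPKM in Ribo-seq, a difference of -4.62 ± 0.64. On the same chromosome, MEDAKA030854 (273 bases, 2371151 to 2371612) had 471 and 552 FPKM in RNA-seq and 33.9 and 10.2 FPKM in Ribo-seq, a difference of -3.90 ± 0.79. MEDAKA087881 on chromosome 22 and MEDAKA019483 on chromosome 18 had mean RNA levels of 447 ± 91.6 and 391 ± 40.5 FPKM (SD, n = 2) and mean footprint levels of 14.0 ± 7.95 and 10.2 ± 10.55 FPKM. In all 5 of these models replicate 1 was the higher of the Ribo-seq libraries. None of the 5 was called without RNA-seq replicate 1 or without RNA-seq replicate 2 (limma, adjusted p from 0.13 to 0.29), and MEDAKA019483 and MEDAKA030658 were not when models below the FPKM limit entered the fit (0.056 and 0.077).

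Both Ribo-seq libraries listed 1170 members (36.3%) at 0, against 462 of the 9437 longer spliced models (4.90%). Of the 1163 short single-exon models without overlap, 496 (42.6%) were at 0 in both, so this was not particular to spliced models. At a difference of 0, the median model would have 4.87 footprint reads among members, 45.9 among longer and 3.77 among short single-exon models. Of the 1170 members, 618 had an RNA level that would give at least 3 footprint reads and 102 one that would give at least 10. The highest RNA level among them, 133 and 135 FPKM, was that of MEDAKA010578 inside csmd3, a gene of a large membrane protein of neurons. With 99 bases this model has an estimated 19.1 RNA reads, which would give 5.94 footprint reads at a difference of 0. MEDAKA002741 (186 bases, chromosome 11, 17172318 to 17174273) lies inside sfpq, which encodes a splicing factor. It had 131 and 126 FPKM in RNA-seq, which would give 43.5 footprint reads, and it was listed at 0 in both Ribo-seq libraries. MEDAKA051415 (291 bases, chromosome 11, 25293672 to 25295737) partly overlaps LOC101172667 and had 103 and 123 FPKM in RNA-seq, which would give 151 footprint reads. It was the best covered of the 5 chosen, which also included MEDAKA065593 outside genes and MEDAKA017515 inside degs1, a sphingolipid desaturase gene. The last of these was uneven in RNA-seq, with 154 and 61.1 FPKM.

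Both RNA-seq libraries listed 12 members at 0, and few reads stood behind their footprints. MEDAKA047496, which partly overlaps LOC101160163, had 13.2 and 0 FPKM in Ribo-seq, an estimated 4.03 reads. MEDAKA090992 inside wnt3a, the gene of a secreted Wnt ligand, had 0 and 11.9 FPKM, an estimated 4.04 reads. MEDAKA003334 outside genes had 1.78 and 4.14 FPKM, again about as many reads in all. All 12 met the FPKM limit through Ribo-seq alone, and no call is given for them.

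Of the 31 members with the extent of a RefSeq gene, 12 matched a protein-coding gene, with 3 higher and 5 lower, and 18 an lncRNA gene, with 1 higher and 10 lower. These are few models, and the shares of the first set, 25% higher and 41.7% lower, lie near the 23.9% and 33.7% of all tested models. Of these 31, 5 matched a gene with a symbol, and they are described although their values were known. The match is by extent alone, without strand or exons, so the values are those of the models and are not shown to be the genes'. pcp4 encodes a small calmodulin-binding protein of neurons, and its model MEDAKA005208 (294 bases, chromosome 13, 25174945 to 25197592) had 141 and 114 FPKM in RNA-seq and 215 and 385 FPKM in Ribo-seq. The assays did not overlap, and the difference was 1.98 ± 0.19 (SE, limma, adjusted p = 0.0042; 0.079 and 0.091 without RNA-seq replicate 1 or 2). hopx encodes a small homeodomain protein that does not bind DNA, and its model MEDAKA064316 (300 bases, chromosome 10, 27682643 to 27686992) had 14.7 and 17.9 FPKM in RNA-seq and 31.1 and 43.7 FPKM in Ribo-seq. Its difference was 1.90 ± 0.17 (SE, limma, adjusted p = 0.0040). With FPKM as deposited neither the model of pcp4 nor that of hopx was called.

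The models matched by extent to fam210b, kitlg and ppp1r14b had few or no footprints, which is not shown to hold for the transcripts of these genes. fam210b encodes a mitochondrial membrane protein, and its model MEDAKA073856 (189 bases) had 9.70 and 10.2 FPKM in RNA-seq and was listed at 0 in Ribo-seq. kitlg encodes the ligand of the receptor kinase Kit, and its model MEDAKA045536 (210 bases) had 1.91 and 5.73 FPKM in RNA-seq and was listed at 0 in Ribo-seq. ppp1r14b encodes an inhibitor of protein phosphatase 1, and its model MEDAKA051583 (222 bases) had 10.8 and 11.4 FPKM in RNA-seq and 0 and 3.52 in Ribo-seq, which was not called (limma, adjusted p = 0.11). It was called with FPKM as deposited (limma, adjusted p = 0.047) and with either Ribo-seq library left out (0.031 and 0.0065). The RNA levels of these 3 models would give 3.56, 1.95 and 6.68 footprint reads, so few reads decide these values. The models of fam210b and kitlg met the FPKM limit through RNA-seq alone, and no call is given for them. None of 124 listed symbols of small ribosomal, respiratory chain, translocase, signalling and RNA-related proteins matched a member. The list held pcp4a and pcp4b but not pcp4, the symbol of a member described above, so a match depends on spelling. Only 44 tested models carried any of these symbols. The lack of matches thus does not show that genes of small proteins are missing among members. The 44 tested models with such symbols, of which 36 were higher and 2 lower against 23.9% and 33.7% of all tested models, were 393 bases or longer.

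Some genes held members with opposite calls. The members inside protein-coding genes fell into 1297 genes, of which 334 held at least 2 members (893 members in all) and 1 held 14. Of the 334 genes, 65 held a higher member, and 50 of these 65 also held a lower one. Among all 1856 members inside protein-coding genes 10.2% were higher and 57.7% lower, so a lower member beside a higher one is frequent at these shares, and nothing particular to the genes is read from the count. In 153 genes at least 2 members were lower and none higher, and in 3 genes at least 2 were higher and none lower. These genes were singled out after their values were seen.

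Among genes with a symbol, the widest range was that of the 2 members inside suclg2, the gene of a subunit of the citric acid cycle enzyme succinyl-CoA ligase. MEDAKA087153 (249 bases, chromosome 5, 15962069 to 15964592) had 59.4 and 45.7 FPKM in RNA-seq and 0.861 and 0.248 FPKM in Ribo-seq. MEDAKA087159 (192 bases, 15992182 to 15994843) had 19.0 and 24.2 FPKM in RNA-seq and 91.2 and 119 FPKM in Ribo-seq. The first was higher in RNA and the second in footprints, with differences of -4.52 ± 0.36 and 3.01 ± 0.20 (SE). For the second the adjusted p was 0.0039 (limma). The first met the FPKM limit through RNA-seq alone, so its call is a description, and it was not called without RNA-seq replicate 1 or 2.

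Further genes held larger sets. LOC101160196 on chromosome 18 held 6 members, of which 2 were higher, 2 lower and 2 neither. Of these, MEDAKA038707 (6299478 to 6300097) had 73.3 and 55.0 FPKM in RNA-seq and 79.9 and 150 FPKM in Ribo-seq, a difference of 1.57. MEDAKA038665 (6405210 to 6407977) had 54.4 and 53.8 FPKM in RNA-seq and 1.02 and 0 FPKM in Ribo-seq, a difference of -4.67. The RNA levels of these models were alike, and their footprints were not. Neither was called without RNA-seq replicate 1 or without RNA-seq replicate 2. MEDAKA038665 met the FPKM limit through RNA-seq alone, so its call is a description. The same holds for the other lower member, MEDAKA038673, which was listed at 0 in both Ribo-seq libraries. With FPKM as deposited, neither MEDAKA038707 nor the other higher member, MEDAKA038682, was called. MEDAKA038682 had an estimated 16.0 reads over both RNA-seq libraries and was not called with no filter either. Differences ran from -4.71 to 1.92 inside diaph2, a gene of a formin that builds actin filaments (4 members, 2 higher and 2 lower). They ran from -4.83 to 1.55 inside sema6a, a semaphorin of axon guidance (3 members, 1 higher and 2 lower), and from -4.42 to 1.76 inside cdkal1, a tRNA-modifying enzyme gene (6 members, 2 higher and 3 lower). Inside cadm4, a cell adhesion molecule of nerve cells and glia, they ran from -3.37 to 2.17 (6 members, 2 higher and 4 lower). The calls counted in these genes are descriptions as well.

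**Figure D5:**
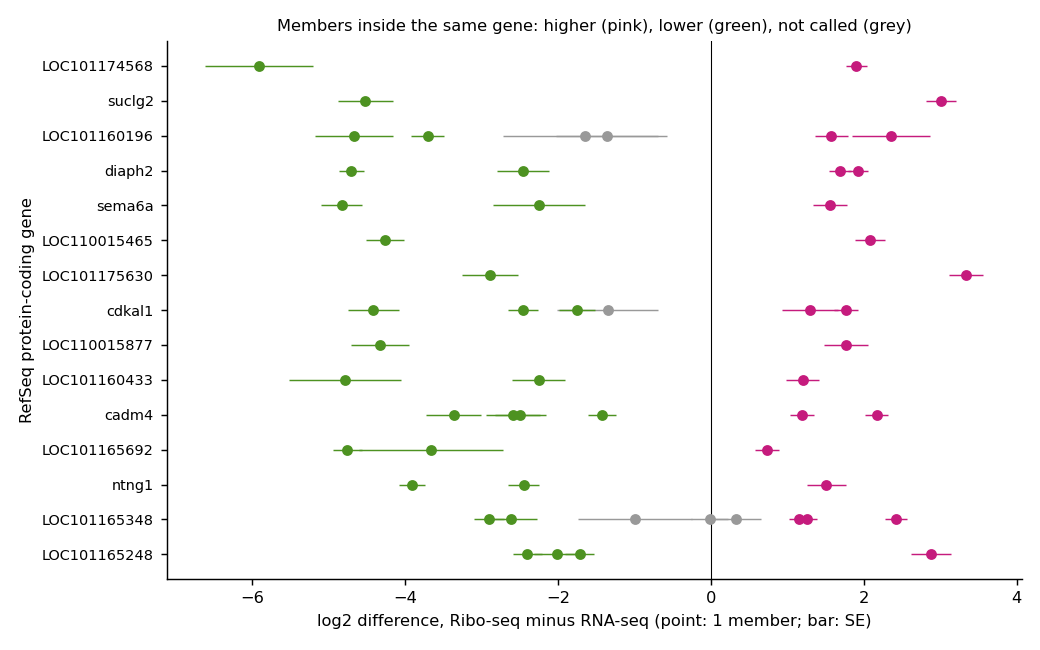
Log2 differences of members inside the 15 protein-coding genes with the widest range among the 50 that hold both a higher and a lower member; each point is 1 member, bars are SE, and colours give the call. suclg2 spans -4.52 to 3.01 and diaph2 -4.71 to 1.92.

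The limits of the rule cut through continuous distributions. Of the 45 members of exactly 300 bases, the most abundant lay inside LOC101166258 (MEDAKA000206), inside wls, whose product carries Wnt proteins to the cell surface, and inside nalcn, the gene of a sodium leak channel. MEDAKA000206 had 140 and 157 FPKM in RNA-seq and 99.8 and 171 FPKM in Ribo-seq. As deposited the assays overlapped and the difference was -0.18, while on scaled FPKM, with 100.2 and 118.8 against 153.4 and 184.4, they did not overlap and it was 0.62 ± 0.18 (SE, limma, adjusted p = 0.047). With upper quartile scaling it was 0.22 (limma, adjusted p = 0.23), and it was past the threshold neither with a pseudocount of 0.1 (0.056) nor with no filter (0.075). It was not called without RNA-seq replicate 1 or 2 or Ribo-seq replicate 2 (limma, adjusted p from 0.053 to 0.27). The model inside wls, MEDAKA062603, had a difference of 2.83 and the one inside nalcn, MEDAKA059540, one of 0.99, which was not called without RNA-seq replicate 1 or 2 (limma, adjusted p = 0.060 and 0.071) and was 0.20 with FPKM as deposited (limma, adjusted p = 0.69). Just outside, at 301 bases, 3 models had differences of -1.39 for MEDAKA075453, 1.44 for MEDAKA057380 and 1.04 for MEDAKA015383. On the FPKM limit, MEDAKA032473 (180 bases) was a member with a mean of 1.0017 through 4.01 FPKM in RNA-seq replicate 2 alone, an estimated 2.03 reads. MEDAKA066714 (225 bases) stayed out with a mean of 0.998 and an estimated 2.003 and 2.005 reads in RNA-seq.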

How the data were processed

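FPKM of 93896 transcript models in 4 libraries (2 RNA-seq, 2 Ribo-seq) were deposited by the authors in 1 table, 1 column per library, per the file headers. Cufflinks 2.2.1 and TopHat2 2.1.0 appear in the submitters' processing notes with no role; genome build, annotation and strand setting: not given in the sources used here. The kit was TruSeq Ribo Profile, per the labels' protocols. FPKM were divided by the median ratio to each model's geometric mean (factors 1.40, 1.32, 0.651 and 0.925) and fitted as log2 of FPKM plus 1 with limma 3.58.1 in R 4.3.3 (eBayes with trend, assay as the single term, Benjamini-Hochberg over 50625 models). The value of 1 read was found from recurring values, after the data were seen; estimated reads are FPKM times effective length over a constant per library. No intervals are given, since the estimates are not all whole. The fit and the read estimate were tested on simulated data. These had the same normal spread for every model in the fit and whole reads in the read estimate. They thus do not show how either does on values like the members'.

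Names came from RefSeq (ASM223467v1) by position. Over all 93896 models, 2137 model ends lay within 10 bp of a protein-coding gene's end, against a mean of 54.5 after shifts. The observed number was higher on 24 of 24 chromosomes. For the members alone it was 3, against a mean of 1.25. The check thus bears on the genome build and gives little support to the name of a member. Coordinates are the authors', counted from 1.

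Members were the models meeting the rule. Named were, per direction, the 8 with the largest difference among those called with a mean FPKM of at least 10, values above 0 in every library and no overlap of the assays as deposited, the 6 highest in each assay, the 5 highest listed at 0 in the other assay, small-protein symbols and the models at the limits; a part on coding length was not applied, as no protein lengths were used. Members, lists and rules were chosen with earlier results of these data known. Group counts and medians are descriptions. Alternatives were other scalings, pseudocounts, filters and length limits, a replicate block, libraries left out and estimated reads in place of FPKM. Scripts ran in Python 3.11.15 with scipy 1.17.1, pandas 2.3.3 and numpy 2.4.6.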

Additional observations from a re-analysis of the deposited data

How the results depend on the processing

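Lower calls among members kept within 1.5 times of 2012 under other scalings, a pseudocount of 0.1, no filter, the replicate block and estimated reads. They were 793 with the limit on mean FPKM at 5 (1437 members), 506 at 200 bases or less (756 members) and 489 among members well covered by RNA (896). Higher calls (227) were 63 with FPKM as deposited, 28 at 200 bases or less and 402 at 400 bases or less, and ranged from 37 (without RNA-seq replicate 2) and 42 (without RNA-seq replicate 1) to 359 (without Ribo-seq replicate 2) when 1 library was left out; lower calls then ranged from 1472 to 2131. All 63 higher calls with FPKM as deposited were among the 227.

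The members' median difference of -1.80 was -2.20 with FPKM as deposited, -2.01 with upper quartile scaling, -4.05 with a pseudocount of 0.1, -2.45 with the FPKM limit at 5, -2.20 with estimated reads, -2.29 and -1.63 at 200 and 400 bases or less, -2.49 among well-covered members, and -1.97 to -1.69 with 1 library left out. Among all tested models, higher calls (12116) were 2425 with FPKM as deposited and ranged from 1529 to 16410 with 1 library left out; lower calls (17048) were 28801 with no filter, 4477 with that limit at 5 and ranged from 9458 to 17897.

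With the replicate number as a block, 239 members were higher and 2072 lower. Nothing in the labels makes the numbers a pairing, and deviations of same-numbered libraries correlated at 0.068 over 50625 models. Of 52 named members, 45 were called. Without RNA-seq replicate 1 or 2, 27 of them lost the call each time with the direction kept, MEDAKA065767, MEDAKA093721, MEDAKA033550, MEDAKA077185, MEDAKA030658, MEDAKA091417, MEDAKA022710, MEDAKA005208 and MEDAKA087153 among them. With FPKM as deposited 7 lost it, among them MEDAKA005208 and MEDAKA064316, and MEDAKA000206 turned from 0.62 to -0.18. MEDAKA000206 also lost it with upper quartile scaling (0.22) and a pseudocount of 0.1. Calls were gained by 2 members with FPKM as deposited, by 1 with the block and by 4 without each Ribo-seq library, MEDAKA051583 among the first and the last. With no filter 5 lost it, MEDAKA019483 and MEDAKA030658 among them, and with estimated reads 0. With 1 library left out, the lone library of its assay is assumed to vary like the others. The causes were not tested. Read estimates were added after seeing the data; depth limits the shortest members most.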
